A study of Mus musculus with 32 samples.

Results

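The comparison is LPS against PBS in haematopoietic stem and progenitor cells (HSPCs; Lin- cKit+ Sca1+) of AF9-experienced mice, measured by ATAC-seq, in which a transposase cuts and tags open DNA. Its members are the peak lists whose names give AF9-experienced mice and either agent: 5 LPS and 4 PBS lists, together 9 of the 16 peak lists of the study and 18 of its 32 samples. Each list covers 1 biological replicate, which the labels divide into 2 technical libraries. How many animals made up a replicate is not given in the sources used here, so p-values measure the spread between replicates as labelled. The other 7 lists come from naive mice and enter only where the LPS response of both kinds of mouse is set side by side.

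AF9-experienced mice model marrow in remission from acute myeloid leukaemia. Lethally irradiated C57BL/6J recipients (CD45.2) received 200000 whole bone marrow cells from iMLL-AF9 donors (CD45.1), homozygous for hMLL-AF9 and for rtTA, the doxycycline-dependent activator, mixed with 800000 cells from wild-type donors (CD45.1+/2+). Naive mice received hMLL-AF9-null donor cells, homozygous for rtTA only, in place of the iMLL-AF9 cells. After 6 to 8 weeks, all mice were given doxycycline for 5 weeks, which switches on the fusion in iMLL-AF9 cells, and then 4 weeks without it. They were injected with LPS or PBS and killed 24 hours later. In every group the sorted HSPCs were CD45.1+/2+, so they descend from the wild-type donors and carry no fusion gene themselves. "AF9-experienced" refers to the marrow they shared with the induced cells.

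LPS is a cell wall component of Gram-negative bacteria. It is sensed by Tlr4 with its partners Ly96 and Cd14, and adaptors of that receptor activate NF-kB, AP-1 and interferon regulatory factors, which bind promoters and enhancers of cytokine, chemokine and feedback genes. HSPCs carry Toll-like receptors and also respond to cytokines that other marrow cells release after LPS, such as interleukin 1, interleukin 6 and interferons. Such challenges are known to push stem cells into division and towards myeloid output.

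The lists differed in length and strength. LPS lists 1 to 5 held 86677, 69882, 61968, 60841 and 65905 peaks, and PBS lists 1 to 4 held 25685, 88505, 88816 and 84229. PBS 1 lay far below every other library, and the groups overlapped. Over the 25219 strongest autosomal peaks of each list, the median of the authors' fold enrichment (peak summit over the local background of the same library) was 12.1, 10.2, 8.05, 7.88 and 9.38 in LPS 1 to 5 and 4.67, 18.8, 17.4 and 17.5 in PBS 1 to 4. The means were 9.52 ± 1.73 (SD, n = 5) after LPS and 14.6 ± 6.65 (SD, n = 4) after PBS, an exact two-sided permutation test giving p = 0.127 (0.381 adjusted over 3 measures; the smallest p this design allows is 0.0159). Without PBS 1, LPS libraries were lower by a mean of 8.39 (values per library: median fold enrichment, LPS minus PBS; exact p = 0.0357), and no LPS value reached any of PBS 2 to 4. Peak number (p = 0.873) and the share of peaks at gene ends (39.7% after LPS and 40.5% after PBS, p = 0.270) did not pass the same exact test. Read depth is not given in peak lists and is unknown here.

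**Figure D1:**
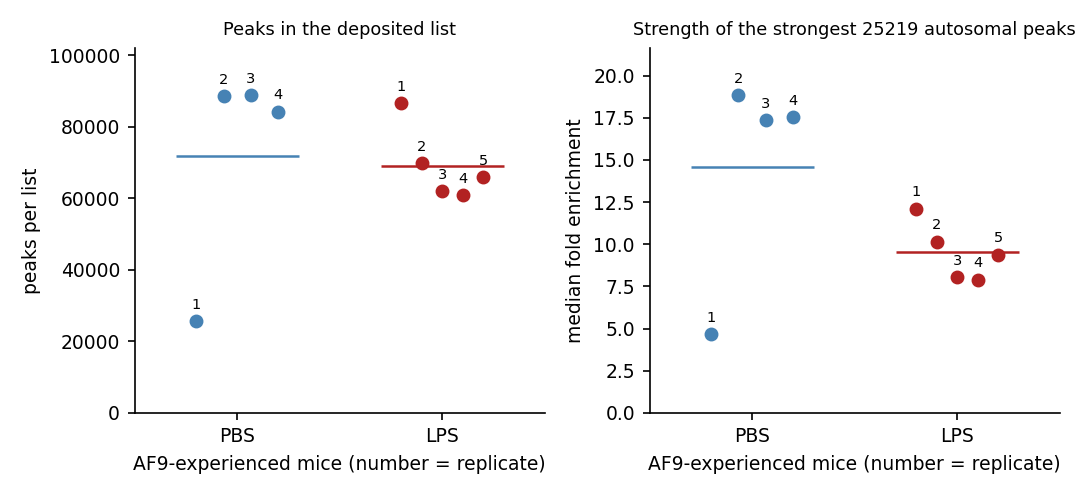
Number of peaks in each deposited list (left) and median of the authors' fold enrichment over its 25219 strongest autosomal peaks (right), with 1 point per list, labelled by replicate, and group means as lines. PBS 1 lies apart at 25685 peaks and a median fold of 4.67, and PBS 2 to 4 (17.4 to 18.8) lie above all LPS lists (7.88 to 12.1).

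Because peak values are not scaled between libraries, regions were compared by rank. From every list the top 25219 autosomal peaks by the authors' -log10 p were kept, as many as PBS 1 has. A region was given, for each list, the percentile rank of the highest-ranked peak inside it, 100 being the strongest. A value of 0 means that no peak was among the 25219 strongest, not that the DNA was closed. Of the 1168 regions called higher below, 1167 held a peak in the full lists of all of PBS 2 to 4. The same held for 28388 of all 28431 tested regions. The median fold of the higher regions was 9.97 in the LPS lists and 12.8 in PBS 2 to 4. Over all tested regions the same medians were 8.80 and 17.0. The mean LPS fold was above that of PBS 2 to 4 in 217 of the higher regions (18.6%). Over all tested regions this was so in 612 (2.15%). So "higher" and "lower" below are places within a list, and treatment and library strength cannot be told apart by fold.

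After LPS, 1168 of 28431 tested regions ranked higher (4.11%) and 618 ranked lower (2.17%) by limma at a Benjamini-Hochberg adjusted p under 0.05. The median difference was 33.9 percentile points among higher regions and -30.9 among lower ones (median SE 7.67 and 7.55). The 5 LPS values lay entirely above the 4 PBS values in 1078 of the higher regions, and entirely below them in 553 of the lower ones. Calls were picked by a small p, which favours such separation, and its share over all tested regions is not given here. These counts describe the calls and are no support for them. Higher regions went from a median PBS mean of 9.99 to a median LPS mean of 52.5. Of these, 293 were in all 5 LPS lists and in no PBS list at this length, and 94 lower regions had the opposite pattern. Their shares over all tested regions are not given here. A region was tested where at least 3 lists held a peak, and these passed only through 1 group. For them, and for every region named below at 0 throughout 1 group, p-values and kept calls stand as a description. Most called regions lay away from gene ends: 12.1% of higher and 17.8% of lower regions were within 1 kb of the end of a protein-coding model, against 37.2% of all tested regions. Regions inside genes made up 50.8% and 44.3%, against 35.0%. By mean percentile, regions of 20 to 40 were called most often (10.2% higher and 4.40% lower), and those of 40 to 60 next for higher calls (5.41%, with 1.76% lower). Over autosomes, the share called higher ran from 3.12% on chromosome 14 to 5.12% on chromosome 5, and the share called lower from 1.35% on chromosome 10 to 3.14% on chromosome 12.

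The counts rested on particular lists. Without PBS 1 at the same length, 1599 regions were higher and 1367 lower. Leaving out PBS 2, 3 or 4 gave 751, 611 and 683 higher and 320, 230 and 228 lower regions, and leaving out LPS 2, 3 or 4 gave 330, 342 and 392 lower ones. Called in every fit without 1 library were 538 of the higher and 176 of the lower regions. Ranking by fold in place of -log10 p gave 445 higher and 301 lower. Of the 119 called regions named in all, 48 of 85 higher and 16 of 34 lower ones were called in every such fit. PBS 3 and PBS 4 mattered most, with 47 and 46 of the 119 calls lost without them, and PBS 1 least, with 5. Losses of calls without 1 library are given below with the genes they touch.

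**Figure D2:**
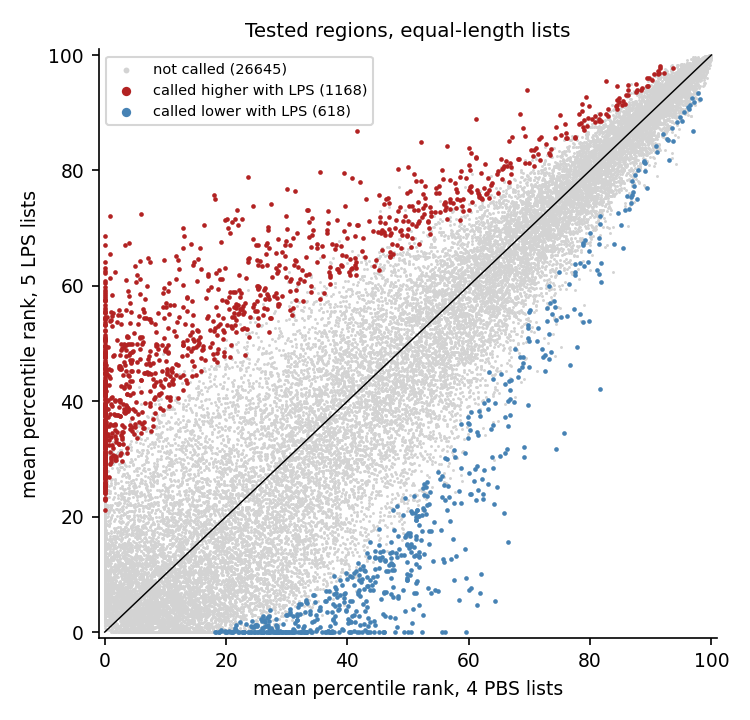
Mean percentile rank of each tested region in the 5 LPS lists (vertical) against the 4 PBS lists (horizontal), both from 0 to 100, with the line of equality. The 1168 regions called higher (red) lie above the line, many of them at or near 0 after PBS, and the 618 called lower (blue) lie below it.

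The region with the clearest rise from outside every PBS list lay inside Ltbp1, which encodes a protein that holds latent TGF-beta in the matrix (GRCm38 chr17:75199558-75200203). It ranked at 65.2, 67.6, 75.0, 71.6 and 63.6 in LPS 1 to 5 and at 0 in all 4 PBS lists. The difference was 68.6 percentile points (SE 6.71, adjusted p = 7.11e-05). A region 0.8 kb outside the start side of the longest RefSeq model of Cep70, a centrosomal protein gene (chr9:99182080-99182763), was present in every list. It ranked at 80.0, 84.9, 85.1, 85.8 and 89.1 after LPS and at 54.2, 52.9, 50.9 and 50.8 after PBS, without overlap (difference 32.8, SE 3.18, adjusted p = 7.11e-05). Inside Lin54, a subunit of the complex that controls cell cycle genes (chr5:100466462-100467231), the values were 73.9, 83.5, 81.0, 77.6 and 78.0 after LPS and 31.7, 31.1, 21.4 and 9.97 after PBS (difference 55.3, SE 5.60, adjusted p = 8.23e-05). Regions at Myo1d, Xrcc4, Clic4, Tmbim1 and Tent5c completed the 8 higher regions of smallest p, each without overlap of the groups.

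Among lower regions, one lay 5.3 kb from Zyx, which encodes zyxin, a focal adhesion protein (chr6:42343280-42344222). It ranked at 8.08, 0, 0, 0 and 15.7 in LPS 1 to 5 and at 63.9, 60.4, 60.2 and 61.2 in PBS 1 to 4. The groups lay far apart (difference -56.7, SE 7.47, adjusted p = 0.000471). A region inside Tcof1, a gene for a nucleolar protein of ribosome production, was in no LPS list at this length and ranked at 53.6, 46.5, 61.7 and 62.4 after PBS (difference -56.0, SE 7.49, adjusted p = 0.000497). At the promoter of Sla2, whose product is an adaptor that damps antigen receptor signalling (chr2:156886783-156887593), values were 20.6, 40.6, 39.4, 44.0 and 27.9 after LPS and 81.4, 73.6, 74.8 and 72.7 after PBS. Among the named regions this was the lower call at a promoter with the smallest p (difference -41.1, SE 5.90, adjusted p = 0.000792). The other lower regions of smallest p were at Magi1, Clcf1, Rplp1, Tnfaip8l3 and Sorl1.

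For the gene lists that follow, a region was linked to the nearest protein-coding gene within 50 kb, and a gene took the direction of its region with the smallest p. By this rule 928 of 13022 genes were higher (7.13%) and 486 lower (3.73%), the background for each count. It is not matched for regions per gene, and a gene with more regions has more chances of a call. The 13022 genes held 26528 regions. By region, 4.11% of all tested were higher and 2.17% lower. Stem cell identity genes had 8 higher and 4 lower of 137 regions, and MLL-AF9 targets 4 and 1 of 87. Immediate early genes had 5 and 2 of 81. NF-kB feedback genes had 7 and 0 of 63, and TCF/LEF and Wnt genes 3 and 7 of 69. The median difference over all tested regions was -0.288 percentile points.

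The sensor itself was not called. The gene-end region of Tlr4 (chr4:66827253-66828258) ranked at 34.6, 44.8, 43.7, 22.9 and 55.2 after LPS and at 47.7, 47.9, 39.1 and 39.6 after PBS, with the PBS values inside the LPS range (difference -3.34, SE 7.46, adjusted p = 0.834). Of 22 measured genes of the LPS receptor and Toll-like receptor pathway, Tlr6 was higher, Tlr9 lower and 20 not called. Tlr6 encodes a partner of Tlr2 in sensing lipopeptides, and Tlr9 a sensor of bacterial DNA. The Tlr6 call was lost without PBS 3 (adjusted p = 0.0541), and that of Tlr9 in 7 of 9 fits, all but those without LPS 2 or LPS 5 (adjusted p 0.0571 to 0.115).

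Downstream, 2 of 5 NF-kB subunit genes were higher and none lower, by limma. The promoter region of Nfkb2, which encodes p100, the precursor of p52 (chr19:46304164-46306113), was already among the strongest regions after PBS. It ranked at 90.8, 92.2, 97.0, 95.6 and 97.2 after LPS and at 85.2, 83.8, 82.6 and 86.2 after PBS. All LPS values were above all PBS values, by a mean of 10.1 points (SE 1.74, adjusted p = 0.00252). A region 4.3 kb from Nfkb1, the gene of p105 and p50 (chr3:135696260-135696807), ranked at 59.8, 57.6, 24.6, 52.0 and 37.1 after LPS and at 0 in every PBS list (difference 46.2, SE 8.69, adjusted p = 0.0046). Here the authors' fold was also higher after LPS: 10.6, 9.27, 5.48, 6.70 and 7.24 in LPS 1 to 5 against 2.22, 3.27 and 3.98 in PBS 2 to 4, with no peak in PBS 1. That is uncommon, since the lowest LPS fold was above the highest of PBS 2 to 4 in 45 of the 1168 higher regions and in 91 of all tested ones. The gene-end regions of Rel and Relb were not called (differences -5.64 and 3.10), nor was that of Nfkb1 (9.82). The Nfkb2 promoter is printed because it lies within the called region and holds matches to the NF-kB consensus. The 250 bases before its start (GRCm38.p6 chr19:46304487-46304736, plus strand, RefSeq) are in lower case, with the NF-kB matches in capitals. A pair of overlapping matches lies at bases 39 to 29 before the start, and a further one at bases 11 to 2.

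Nfkb2: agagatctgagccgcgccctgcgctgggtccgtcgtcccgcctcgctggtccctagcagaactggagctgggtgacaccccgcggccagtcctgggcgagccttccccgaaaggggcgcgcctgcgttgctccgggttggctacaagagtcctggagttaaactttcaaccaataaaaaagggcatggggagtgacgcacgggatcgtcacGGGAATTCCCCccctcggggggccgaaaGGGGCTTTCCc

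Among NF-kB feedback inhibitors and survival targets, 7 of 22 were higher and none lower: Traf2, Birc3, N4bp1, Cflar, Zc3h12a, Tnfaip3 and Nfkbia. The median difference over the 63 regions of the list was 1.44, so the rise lay in single regions and not across the list. At the promoter of Birc3, which encodes the apoptosis inhibitor cIAP2 (chr9:7872510-7873305), ranks were 90.7, 93.2, 92.1, 93.2 and 94.2 after LPS and 83.1, 83.2, 73.7 and 77.1 after PBS, without overlap (difference 13.4, SE 2.13, adjusted p = 0.00144). Traf2, an adaptor of TNF receptors that recruits cIAP proteins, had a region inside the gene (chr2:25533918-25534748) at 54.4, 46.1, 58.7, 44.7 and 43.5 after LPS and at 0, 2.17, 0 and 0 after PBS (difference 48.9, SE 7.49, adjusted p = 0.00116). Both kept the call without any 1 library, as did N4bp1, Cflar and Zc3h12a. Not every called promoter held a motif match. No match to the NF-kB consensus or to the AP-1 motif TGANTCA was found in the promoter windows of Birc3 and of Atf3, which is described below.

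The inhibitors A20 (Tnfaip3) and IkB-alpha (Nfkbia) were higher at distal regions only. The Tnfaip3 region lay 46.6 kb from the gene (chr10:19062037-19063043) and ranked at 84.0, 87.8, 85.0, 84.9 and 86.8 after LPS and at 85.1, 67.4, 65.5 and 69.5 after PBS. PBS 1 lay within the LPS range (difference 13.8, SE 3.36, adjusted p = 0.0213), and the call was lost without LPS 2, PBS 2, PBS 3 or PBS 4 (adjusted p 0.0566 to 0.0752). The Nfkbia region, 22.1 kb away (chr12:55466392-55467304), ranked at 10.0, 23.3, 62.5, 60.3 and 36.0 after LPS and at 0 in all PBS lists. Its LPS values spread more than at any other named higher region (SD 22.9, n = 5), and its call (difference 38.4, SE 10.3, adjusted p = 0.035) was lost without LPS 3, LPS 4, PBS 2, PBS 3 or PBS 4 (0.0769 to 0.0923). The promoter regions of Tnfaip3 and Nfkbia were strong in every list and not called (differences 1.70 and 1.44).

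Of 18 inflammatory effector genes 3 were higher and none lower: Acod1, Il1b and Csf2. Acod1 makes itaconate from an intermediate of the citric acid cycle in activated macrophages. Its region inside the gene (chr14:103048449-103049238) ranked at 52.1, 53.1, 48.1, 54.2 and 59.3 after LPS and at 0 in all 4 PBS lists (difference 53.4, SE 7.22, adjusted p = 0.000528). This region passed the filter through the LPS lists alone. Il1b encodes interleukin 1 beta. Its region (chr2:129367991-129368507) ranked at 58.5, 56.5, 59.9, 60.0 and 36.3 after LPS, LPS 5 being the lowest, and at 0 after PBS (difference 54.2, SE 7.82, adjusted p = 0.000792). The median over the 39 regions of the list was 8.28 points. For Csf2, the GM-CSF gene, the groups overlapped and the call was lost in 7 of 9 fits, all but those without LPS 2 or PBS 1 (adjusted p 0.0640 to 0.124).

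Chemokines had 2 of 12 measured genes higher, Ccl4 and Cxcl10, and none lower, and a median over their 20 regions of 11.5. Ccl4 attracts monocytes and T cells. Its region (chr11:83662158-83662893) ranked at 22.2, 39.9, 53.6, 60.5 and 55.0 after LPS and at 0, 3.90, 7.67 and 1.67 after PBS, without overlap (difference 42.9, SE 8.81, adjusted p = 0.00807). At the promoter of Cxcl10, a ligand of Cxcr3 that interferons and NF-kB both induce (chr5:92348343-92349143), ranks were 61.9, 56.3, 58.8, 53.1 and 46.1 after LPS and 0, 38.4, 26.2 and 20.3 after PBS. All LPS values were above all PBS values (difference 34.0, SE 8.04, adjusted p = 0.0182), and the call was lost without LPS 3 or PBS 4 (adjusted p 0.0503 to 0.0504).

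In the longer lists described further on, which leave out PBS 1, the promoter of Cxcl2, a ligand of the neutrophil receptor Cxcr2 (chr5:90902572-90904094), was also higher. It ranked at 69.4, 75.5, 74.1, 69.9 and 77.4 in LPS 1 to 5 and at 49.7, 36.5 and 32.1 in PBS 2 to 4 (difference 33.8, SE 5.20, adjusted p = 0.00193). The promoters of Cxcl10 (chr5:92348890-92349139, minus strand) and Cxcl2 (chr5:90903649-90903898, plus strand) are printed as chemokine promoters inside called regions, again as the 250 bases before the RefSeq start in GRCm38.p6 with NF-kB matches in capitals. In Cxcl10 these lie 159 to 150 and 103 to 94 bases before the start, and a match to the AP-1 motif TGANTCA lies at bases 74 to 68. In Cxcl2 the matches overlap at bases 97 to 87.

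Cxcl10: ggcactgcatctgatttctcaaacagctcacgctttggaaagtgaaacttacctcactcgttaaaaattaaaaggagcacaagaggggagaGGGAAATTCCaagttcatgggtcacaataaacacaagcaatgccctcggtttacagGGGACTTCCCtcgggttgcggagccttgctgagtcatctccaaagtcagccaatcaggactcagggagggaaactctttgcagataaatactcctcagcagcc
Cxcl2: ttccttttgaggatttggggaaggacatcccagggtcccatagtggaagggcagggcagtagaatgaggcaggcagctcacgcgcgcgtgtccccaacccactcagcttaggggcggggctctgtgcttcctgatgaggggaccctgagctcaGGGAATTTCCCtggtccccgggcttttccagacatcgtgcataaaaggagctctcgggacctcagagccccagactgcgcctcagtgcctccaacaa

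**Figure D3:**
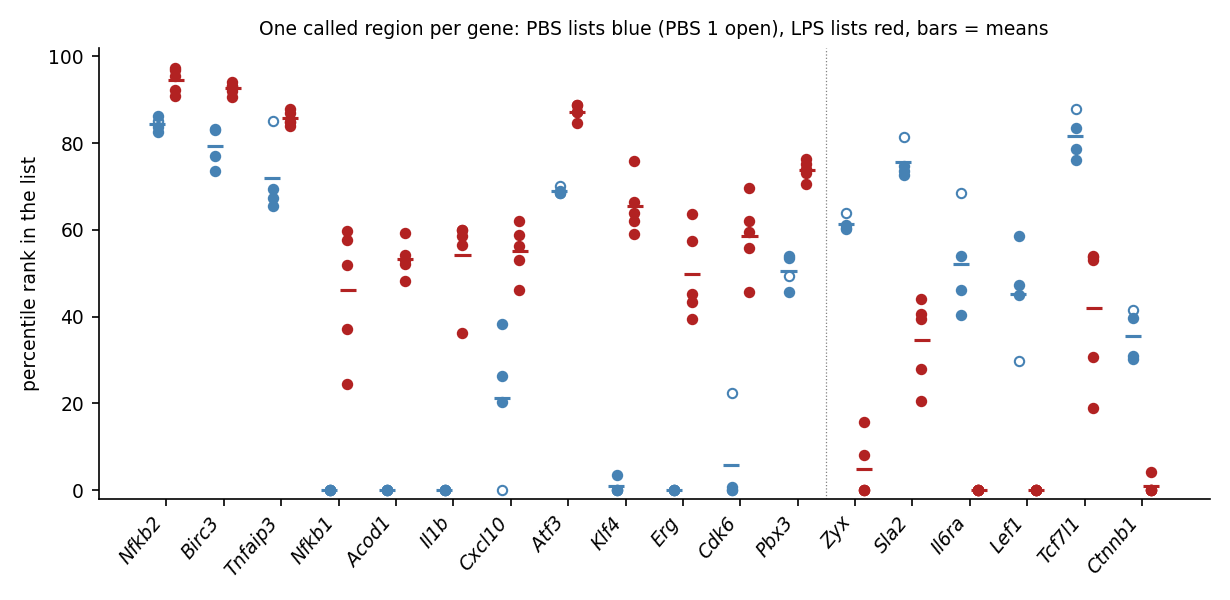
Percentile rank of 1 called region for each of 18 named genes, with 1 point per list (PBS blue, with PBS 1 open, LPS red) and group means as bars. To the left of the dotted line regions were called higher after LPS and to the right lower. Nfkb1, Acod1, Il1b and Erg are at 0 in every PBS list, and Il6ra and Lef1 at 0 in every LPS list.

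AP-1 factors, dimers of Fos, Jun, Atf and Maf proteins, had 6 of 18 genes higher (Atf3, Atf6, Batf3, Fosb, Junb and Mafk) and 1 lower (Fos), and 10 of their 55 regions were higher. Atf3, an early stress factor that restrains Toll-like receptor targets, was called at its promoter (chr1:191182394-191183900). It ranked at 88.7, 88.8, 87.1, 87.1 and 84.7 after LPS and at 70.1, 68.4, 69.1 and 68.4 after PBS. Both groups were tight and far apart (difference 18.3, SE 2.26, adjusted p = 0.000281). The calls of Fosb, Junb and Mafk were each lost in some fits without 1 library (adjusted p 0.0564 to 0.119), and for Junb PBS 1 overlapped the LPS values. Fos went the other way at a region 42.8 kb from the gene (chr12:85430225-85431073), with ranks of 0, 0, 0, 0 and 9.43 after LPS and 34.9, 20.1, 28.2 and 25.4 after PBS. The groups did not overlap (difference -25.3, SE 6.59, adjusted p = 0.0305), yet the call was lost in 6 of 9 fits, those without LPS 1, 2, 3 or 4 or PBS 3 or 4 (0.0590 to 0.0742). The promoter of Fos was called higher in the longer lists (difference 4.26, SE 0.83, adjusted p = 0.00696).

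Immediate early genes, which respond within minutes to many stimuli, had 5 of 22 higher (Klf4, Ier2, Dusp6, Zfp36 and Dusp1) and 2 lower (Nr4a1 and Btg2). Klf4 encodes a zinc finger factor of monocyte differentiation. Its region 37.5 kb away (chr4:55488527-55489624) ranked at 62.1, 59.1, 76.0, 63.9 and 66.5 after LPS and at 0, 0, 0 and 3.57 after PBS (difference 64.6, SE 6.997, adjusted p = 0.000124). Klf4 was the only one of these 7 to keep its call in all 9 fits without 1 library, the others reaching adjusted p-values of 0.0509 to 0.143. Btg2 was higher in the longer lists, at another region.

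Interferon-stimulated genes gave few calls. Of 30 measured, 1 was higher, Nmi, an interactor of STAT proteins, and 29 were not called, a share of higher genes below the background. Of 17 genes for interferon receptors, their signal transducers and interferon regulatory factors, Ifnar2 and Irf2bp2 were higher, the latter lost in some fits without 1 library (adjusted p 0.0539 to 0.0883). Ifnar2, a chain of the type I interferon receptor, had a region 19.6 kb away (chr16:91352762-91353219) at 60.1, 52.9, 49.1, 45.8 and 19.4 after LPS and at 0 in every PBS list (difference 45.5, SE 8.79, adjusted p = 0.00554). At the promoter of Irf1 (chr11:53769556-53770864) ranks were 88.4, 84.4, 90.3, 90.3 and 92.8 after LPS and 90.5, 87.0, 89.2 and 88.1 after PBS. These overlapped throughout (difference 0.53, SE 1.83, adjusted p = 0.895).

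In the list of the IL-6 receptor, STAT3, STAT5 and SOCS genes, 4 of 26 were higher (Jak2, Osm, Cish and Socs3) and 2 lower (Clcf1 and Il6ra). Socs3 and Cish encode feedback inhibitors of JAK and STAT signalling. The Socs3 promoter (chr11:117968670-117970287) ranked at 83.3, 82.9, 89.1, 85.7 and 87.1 after LPS and at 74.9, 80.2, 74.3 and 74.6 after PBS, without overlap (difference 9.65, SE 2.31, adjusted p = 0.0196). Its call was lost without LPS 3, PBS 3 or PBS 4 (0.0599 to 0.0663), and that of Cish without PBS 3 (0.0557). Il6ra, the ligand-binding chain of the IL-6 receptor, had 2 gene-end regions with different outcomes. That at the far end of the gene (chr3:89869558-89869916) was at 0 in all 5 LPS lists and at 68.5, 40.3, 46.2 and 54.0 after PBS (difference -52.3, SE 7.95, adjusted p = 0.00112). The promoter region lay between 67.7 and 73.3 in all 9 lists and was not called (difference -0.54).

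Of the stem cell identity genes, 7 of 34 were higher (among them Erg, Etv6, Nfe2l2, Foxo3, Fli1 and Runx1) and 2 lower (Egfl7 and Prdm16). In the longer lists described further on, the counts were 11 higher and 7 lower of 35, and Foxo3 was lower there, at another region. Without PBS 4 the Foxo3 call was lost (adjusted p = 0.0633 by limma), and that of Fli1 was lost in 6 of 9 fits (0.0524 to 0.113). Erg encodes an ETS factor needed to maintain stem cells. Its region inside the gene (chr16:95415825-95416661) ranked at 39.4, 43.3, 57.3, 45.2 and 63.7 after LPS and at 0 in all PBS lists (difference 49.8, SE 7.90, adjusted p = 0.00144). In Runx1, which encodes a master factor of blood formation, the region inside the gene (chr16:92715380-92716352) ranked at 59.4, 52.2, 49.8, 62.5 and 57.1 after LPS and at 0, 48.7, 30.3 and 25.9 after PBS. The groups did not overlap (difference 30.0, SE 8.45, adjusted p = 0.0435), but the call was lost in 7 of 9 fits, all but those without PBS 1 or PBS 2 (0.0687 to 0.102). Lower were a region near Egfl7, a secreted endothelial and stem cell protein, and one inside Prdm16, a stem cell maintenance factor. The promoters of Kit, Flt3, Cebpa and Irf8 and the gene ends of Hoxa9, Mecom and Spi1 were not called.

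Genes known as targets of MLL-AF9 were measured here in cells without the fusion. Of 20, Cdk6, Pbx3 and Bcl2 were higher and Id2 lower, the last not without LPS 4, PBS 2 or PBS 3 (adjusted p 0.0567 to 0.0784). Cdk6 drives exit from quiescence in stem cells. Its intragenic region (chr5:3497257-3498170) ranked at 45.6, 62.1, 59.4, 55.9 and 69.8 after LPS and at 22.3, 0.81, 0 and 0 after PBS, PBS 1 being the highest (difference 52.8, SE 8.02, adjusted p = 0.0011). Inside Pbx3, a cofactor of HOXA9 and MEIS1 (chr2:34359627-34360629), ranks were 73.1, 70.6, 74.1, 76.3 and 75.3 after LPS and 49.4, 54.0, 45.6 and 53.5 after PBS (difference 23.3, SE 3.85, adjusted p = 0.00198). For the survival gene Bcl2 (chr1:106627101-106627648) they were 44.7, 53.9, 71.4, 59.7 and 65.5 after LPS and 0, 26.1, 3.68 and 11.9 after PBS (difference 48.6, SE 8.11, adjusted p = 0.00206). These 3 calls were kept without any 1 library. Meis1, a central target of the fusion, was not called at its promoter (chr11:19018575-19019480), which ranked at 53.8, 71.8, 64.9, 65.5 and 73.9 after LPS and at 70.8, 62.4, 60.7 and 59.6 after PBS (difference 2.62, SE 4.56, adjusted p = 0.776). The promoter regions of Cdk6 and Bcl2 were not called either (differences -2.24 and 1.42).

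Genes of the TCF/LEF and Wnt pathway had more lower than higher calls. Wnt signals stabilise beta-catenin (Ctnnb1), which binds TCF/LEF factors on DNA. Of 20 genes 6 were lower (Lef1, Tcf7l1, Ctnnb1, Tcf7l2, Tle4 and Gsk3b), against 3.73% of all genes, and 2 higher (Rnf43 and Apc). The median over the 69 regions of the list was -4.02. Just inside Lef1 (chr3:131157350-131157925), ranks were 0 in all 5 LPS lists and 29.8, 45.0, 47.4 and 58.5 after PBS (difference -45.2, SE 7.81, adjusted p = 0.00256). A region 21.1 kb from Tcf7l1, which encodes a mainly repressive TCF factor (chr6:72810193-72810749), was strong after PBS, at 87.9, 83.6, 76.2 and 78.6. It ranked lower, at 30.6, 18.9, 53.1, 53.8 and 54.0 after LPS (difference -39.5, SE 6.85, adjusted p = 0.0026). At the far end of Ctnnb1 (chr9:120960430-120961004), ranks were 0, 0, 0, 0 and 4.15 after LPS and 41.4, 30.3, 30.8 and 39.6 after PBS (difference -34.7, SE 6.98, adjusted p = 0.0072). Lef1, Tcf7l1 and Ctnnb1 kept the call without any 1 library, and the other 3 lower genes did not (0.0575 to 0.129), nor did Rnf43 and Apc (0.0534 to 0.132). In the longer lists 8 of 20 were lower and 3 higher, and Tcf7l2 and Gsk3b were among the higher ones, each at another region than here.

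Lymphoid priming genes showed the same direction, with 5 of 23 lower (Lef1, Ccr9, Ccr7, Bcl11a and Notch1) and 1 higher, Ikzf2. Ccr9 and Ccr7 guide progenitors to the thymus, and Notch1 starts T cell commitment. Only the Lef1 call was kept without any 1 library among the 5 (adjusted p 0.0502 to 0.138 for the rest). Of 19 granulocyte and monocyte fate genes, Klf4 and Id1 were higher and Csf1r, Id2 and Runx3 lower, these 3 not in every fit without 1 library (adjusted p 0.0514 to 0.125). Runx3 was higher in the longer lists, at another region. Csf1r is the receptor for macrophage colony-stimulating factor. Its region inside the gene ranked at 43.7, 45.8, 57.0, 63.0 and 63.4 after LPS and at 72.5, 77.5, 73.9 and 76.7 after PBS, without overlap (difference -20.6, SE 4.76, adjusted p = 0.0165). The call was lost without PBS 2, PBS 3 or PBS 4 (0.0514 to 0.0630). In the growth factor and cytokine receptor list, Csf1r and Il4ra were lower, and none of the other 14 measured genes was called. The Il4ra call was lost in the fits without an LPS list (adjusted p 0.0591 to 0.0756), and 3 other fits gave it no value.

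The Sla2 promoter (chr2:156887222-156887471, minus strand, 250 bases before the start) is printed beside these lower calls as the promoter with the smallest p among the named lower regions. It held no match to the NF-kB consensus or to TGANTCA, so it has no capitals.

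Sla2: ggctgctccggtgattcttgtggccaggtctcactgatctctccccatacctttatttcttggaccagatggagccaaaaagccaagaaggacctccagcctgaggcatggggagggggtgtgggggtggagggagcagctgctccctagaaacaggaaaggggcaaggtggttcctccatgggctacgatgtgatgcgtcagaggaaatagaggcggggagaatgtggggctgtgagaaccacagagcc

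Genes of glycolysis and cholesterol synthesis had 7 of 27 higher and none lower, among them Pfkfb3, Hk1, Ldha, Slc2a3, Hk2 and Lss. In the longer lists described further on, 9 of 28 were higher and 3 lower (Insig1, Sqle and Pkm). Pfkfb3 makes the strongest activator of glycolytic phosphofructokinase. Its intragenic region (chr2:11530046-11530791) ranked at 51.0, 44.5, 63.1, 71.0 and 61.1 after LPS and at 0 in all PBS lists (difference 58.2, SE 7.77, adjusted p = 0.000497). Pfkfb3 and Hk1 (a hexokinase) kept the call without any 1 library, and Ldha, Slc2a3, Hk2 and Lss did not (0.0507 to 0.114).

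Adhesion, homing and niche genes had 6 of 20 higher (Cd9, Itga5, Cxcr4, Cd47, Cd244a and Itgb2) and 1 lower (Robo4). Cd9, a tetraspanin of stem cells and megakaryocytes, had a region inside the gene (chr6:125473281-125474195) at 65.0, 72.0, 71.9, 71.5 and 70.1 after LPS and at 0, 0, 27.4 and 24.3 after PBS (difference 57.2, SE 7.25, adjusted p = 0.000313). Cxcr4, the receptor that retains HSPCs in marrow, had a region 22.2 kb away (chr1:128614454-128615731) at 69.1, 71.0, 82.0, 86.0 and 83.0 after LPS and at 53.9, 45.0, 49.8 and 56.8 after PBS (difference 26.9, SE 4.41, adjusted p = 0.00186). Neither pair of groups overlapped. Cd9, Itga5, Cxcr4, Cd47 and Cd244a kept the call without any 1 library, and Itgb2 did not (0.0548 to 0.0848). For Robo4, an endothelial and stem cell guidance receptor, PBS 1 was at 0, and the call was lost in all fits but those without LPS 5 or PBS 1 (0.0625 to 0.108).

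Of 17 genes of the BCL2 family and apoptosis, Bcl2, Bid and Bcl2l1 were higher and none lower, all kept without any 1 library. Of 37 cell cycle regulators, Cdk6, Mki67, Mcm5 and Ccnd3 were higher and none lower, and only the Cdk6 call was kept without any 1 library (0.0526 to 0.120 for the rest). Chromatin regulators mutated in clonal haematopoiesis had 1 of 21 higher (Kdm1a) and 1 lower (Dot1l, the methyltransferase that MLL-AF9 recruits). Antigen presentation had 2 of 21 higher (Tap2 and Cd80), and the megakaryocyte and erythroid fate list 3 of 23 higher (Zfpm1, Pf4 and Fli1) and 2 lower (Itgb3 and Ank1). In the list of the IL-1 receptor family and inflammasome, 1 of 13 was lower (Il1r2, the decoy receptor) and none higher. In these lists Kdm1a, Tap2, Cd80, Pf4, Fli1, Ank1 and Il1r2 lost the call in some fits without 1 library (adjusted p 0.0501 to 0.130). Itgb3 was called higher in the longer lists described further on, where another of its regions had the smallest p. No member of the Sca-1 and Ly6 list (4 measured) or of the housekeeping list (14 measured) was called by limma. Sca-1 itself (Ly6a) had no tested region.

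Markers of cells outside the sort gate were also read. HSPC markers had a tested gene-end region for 7 of 12 genes, with means of 21.0 to 89.6 after LPS and 18.5 to 92.3 after PBS. Of 20 markers of mature lineages, 4 had one, among them Cd3d (84.1 after LPS and 83.1 after PBS), Adgre1 (22.99 and 0) and Kdr (29.4 and 42.8). No gene-end region of a B cell, NK cell or neutrophil marker was tested. By nearest gene, Itgam was the only call of 8 in the neutrophil list, Prf1 of 8 in the mature lymphocyte list, Cd200r3 of 8 in the mast cell and basophil list, and Emcn of 11 in the endothelial and stromal list, all higher. The calls of Itgam and Emcn were lost in some fits without 1 library (0.0512 to 0.0775).

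Macrophage genes were among those called. Of 11 measured monocyte and macrophage genes 3 were higher (Cd68, Siglec1 and Adgre1) and none lower, with a median of 12.97 over 17 regions. The promoter of Cd68, which encodes a lysosomal glycoprotein (chr11:69665754-69666507), ranked at 32.3, 24.4, 37.1, 33.3 and 50.7 after LPS and at 7.25, 0, 5.40 and 0 after PBS (difference 32.4, SE 7.84, adjusted p = 0.0208). One end of Adgre1, the gene of F4/80 (chr17:57358359-57358931), ranked at 20.1, 26.8, 28.4, 21.4 and 18.2 after LPS and at 0 in all PBS lists (difference 22.99, SE 6.28, adjusted p = 0.0376). Neither pair overlapped. Without PBS 2, 3 or 4 the calls of Cd68 (0.0660 to 0.0792) and Siglec1 (0.0787 to 0.0923) were lost, and that of Adgre1 also without LPS 2 or 3 (0.0534 to 0.135). The full lists of PBS 2 to 4 held an Adgre1 peak of fold 19.2, 14.4 and 15.4, above the LPS folds of 6.75 to 11.2. In a sorted population measured in bulk, a larger share of cells of one kind and more accessibility per cell cannot be told apart. The part of such cells in the higher inflammatory regions was not tested. The Cd68 promoter (chr11:69666171-69666420, minus strand) is printed because it holds 2 matches to the AP-1 motif TGANTCA, in capitals, 149 to 143 and 24 to 18 bases before the start.

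Cd68: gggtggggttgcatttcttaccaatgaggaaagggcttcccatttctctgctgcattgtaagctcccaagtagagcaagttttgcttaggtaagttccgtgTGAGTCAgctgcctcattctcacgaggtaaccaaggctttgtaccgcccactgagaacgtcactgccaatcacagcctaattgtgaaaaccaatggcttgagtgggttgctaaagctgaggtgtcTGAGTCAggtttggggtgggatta

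**Figure D4:**
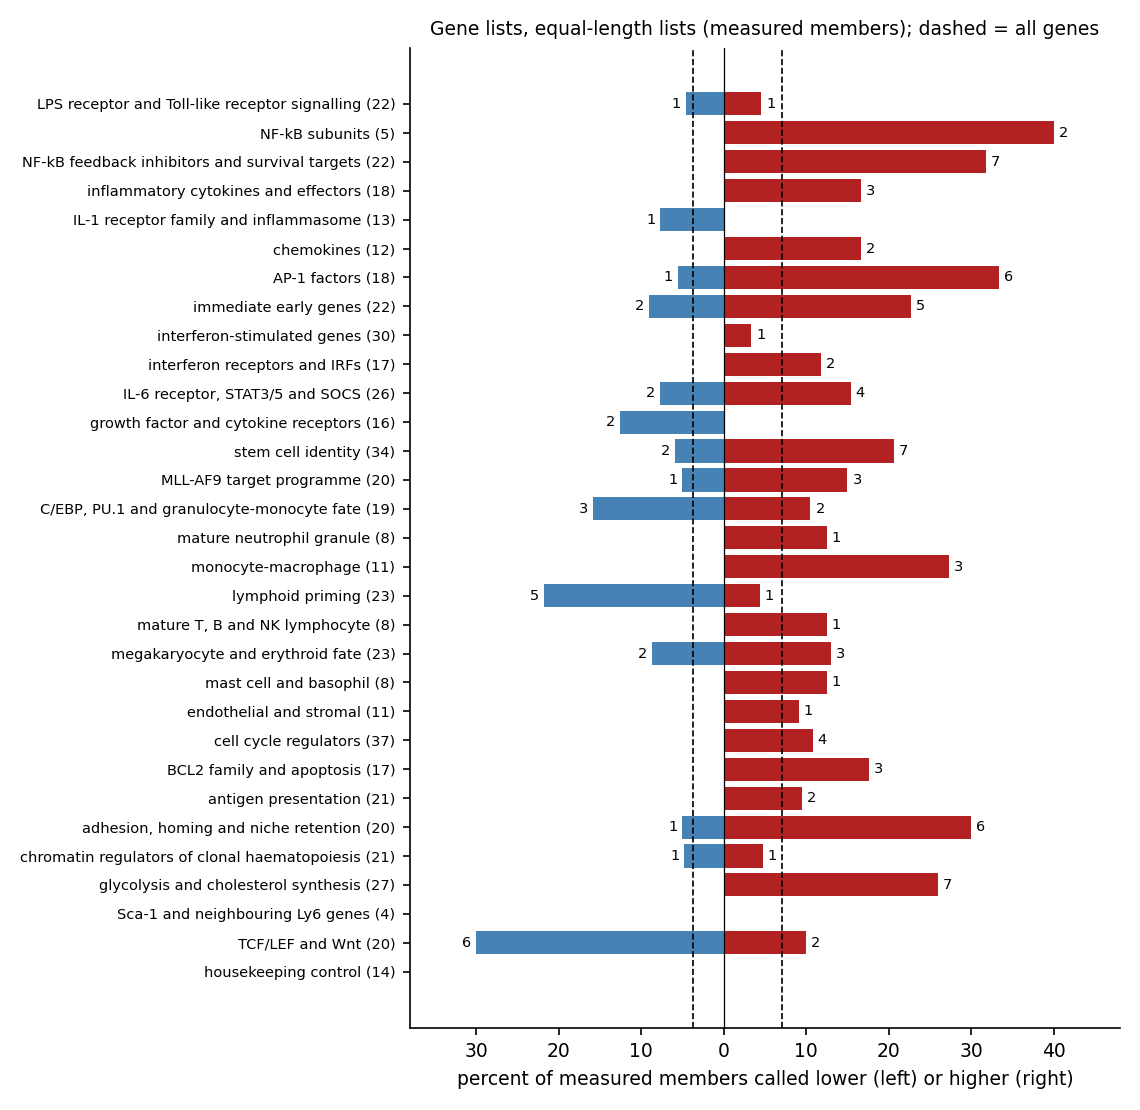
For each gene list, the percent of its measured members (number in parentheses) called higher after LPS (red, right) or lower (blue, left), with counts at the bars and dashed lines at the shares over all genes, 7.13% higher and 3.73% lower. NF-kB feedback genes (7 of 22 higher) extend furthest right among the lists of 20 or more, and TCF/LEF and Wnt genes (6 of 20 lower) furthest left. The shares over all genes are not matched for the number of regions per gene.

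Leaving out PBS 1 allowed lists of 59609 peaks, so that weaker regions could be ranked over 5 LPS and 3 PBS lists. In these longer lists 3181 of 63317 regions were higher (5.02%) and 3283 lower (5.19%), and by gene 2084 of 15489 were higher (13.5%) and 1892 lower (12.2%). The median difference over all tested regions was -1.20. Of the 1168 higher regions of the shorter lists 1131 were called higher here, as were 410 of the 618 lower ones called lower, and none was called the opposite way. Leaving out PBS 2, 3 or 4 gave 1697, 1434 and 1667 higher and 489, 314 and 360 lower regions. With the median fold of each library as a covariate no region was called. All 5 LPS libraries were weaker than the 3 PBS libraries.

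More genes were called in most lists, read against the larger background. Of 65 called regions followed through the fits without 1 library, 39 kept the call in all 8, 15 lost it in some, and 11 had no value in some. Adhesion, homing and niche genes had 11 of 21 higher and 4 lower, and the housekeeping list 1 of 14 higher (Tuba1b) and 1 lower (Ywhaz). Some lists without a lower call in the shorter lists had lower calls here. Cell cycle regulators had 6 of 37 higher and 4 lower. The BCL2 family and apoptosis list had 5 of 17 higher and 2 lower, and monocyte and macrophage genes 4 of 15 higher and 2 lower. NF-kB feedback genes reached 11 of 23 higher and 1 lower (Tnip3), effectors 8 of 23 higher and none lower, and chemokines 7 of 17 higher and 1 lower (Cxcl5). The promoter of Ccl3, a chemokine next to Ccl4 (chr11:83648199-83649890), ranked at 67.5, 55.0, 71.8, 75.1 and 73.4 after LPS and at 45.2, 34.4 and 42.2 after PBS (difference 27.9, SE 5.88, adjusted p = 0.0104), a call lost without PBS 3 (0.0539). AP-1 factors had 9 of 18 higher, among them Jun at its promoter (difference 4.85, SE 0.93, adjusted p = 0.00634), and 2 lower. A region 38.1 kb from Runx1 (chr16:92864223-92864605) rose to 56.6, 76.4, 72.0, 69.8 and 70.5 from 9.87, 5.58 and 20.9 (difference 57.0, SE 7.43, adjusted p = 0.000718). Cx3cr1, the fractalkine receptor of monocytes, had an end region at 53.1, 59.6, 73.7, 64.6 and 65.2 after LPS and at 0 in PBS 2 to 4.

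Some regions had no peak at all after LPS. A region 25.5 kb from Zeb2, a repressor that shapes myeloid and lymphoid fates (chr2:45142939-45143468), had no peak in any full LPS list and ranked at 47.0, 56.7 and 58.9 in PBS 2 to 4. Its authors' fold there was 19.2, 18.7 and 18.9. Regions at Satb1, a chromatin organiser of lymphoid progenitors (30.0, 33.2 and 35.2), E2f8, a repressor of the cell cycle (40.3, 51.9 and 42.2), and S1pr1, a receptor for exit from tissues (25.5, 39.1 and 36.3), showed the same pattern. None of these 4 had a peak in PBS 1. They passed the filter of at least 3 lists only through PBS 2 to 4, so they had no value once any of these was left out, and their ranks stand as a description.

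Some genes held several called regions of one direction in the longer lists. Hivep3 had 8 lower of 35 tested, Pde4d 7 lower of 60, and Ust 6 lower of 14. Cdk6 had 6 higher of 21 and none lower. Elmo1, Gfod1, Gse1 and Susd1 also had 6 higher each, with 1, 1, 4 and 1 lower. Large genes hold more regions, so the number tested stands beside each count. Of the 3283 lower regions, 995 were in every PBS list used and in no LPS list. The opposite pattern was found in 309 of the 3181 higher regions. Shares of both patterns over all tested regions are not given here. All these regions passed the filter of at least 3 lists only through 1 group, so their calls stand as a description. All followed Pde4d regions and some of Hivep3 passed the filter only through PBS 2 to 4, with no value in 3 fits. Followed Ust regions lost the call in 3 to 7 of 8 fits by limma (adjusted p up to 0.233). Those of Cdk6 and Susd1 kept it in all 8, and some of Elmo1, Gfod1 and Gse1 lost it in 1 or 2.

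Promoter sequences were read for the called regions (RefSeq starts, GRCm38.p6, windows of 300 bases, both strands). In the lists of 25219 peaks, 117 windows of 103 genes lay in higher regions and 81 windows of 72 genes in lower ones. The NF-kB consensus was found in 12.0% of the windows in higher regions and 4.94% of those in lower regions, against 5.36% of 10476 windows in any tested region and 4.93% of all 20085 autosomal windows. The AP-1 motif TGANTCA was found in 8.55%, 1.23%, 3.98% and 7.06% of the same sets. The other motifs searched were ISRE, STAT (TTCNNNGAA), C/EBP (TTGCNNAA), ETS (CCGGAAGT), PU.1 (GAGGAAGT), RUNX (TGTGGT), the GATA-factor motif AGATAA, CRE (TGACGTCA) and E2F (TTTCCCGC). Their shares in higher windows and in windows of any tested region were 3.42% and 2.83% for ISRE and 7.69% and 6.22% for STAT. Wider gaps were found for the GATA-factor motif (12.0% and 5.17%), RUNX (16.2% and 11.8%) and PU.1 (5.13% and 3.08%). In the longer lists the higher set had 347 windows, with the NF-kB consensus and TGANTCA each in 7.78%, against 5.56% and 4.61% of the windows in any tested region. There the GATA-factor motif was in 10.4% against 5.58%, PU.1 in 6.05% against 3.07% and E2F in 4.03% against 2.04%. STAT was in 6.34% against 6.31%. The contrast was thus not particular to NF-kB and AP-1. Windows of one gene can overlap and share a region, and a match in this window is not evidence of binding.

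Whether the LPS response differed from that in naive mice was tested over all 16 lists, each shortened to 19100 peaks. No region of 23554 (0%) passed limma's test of the difference at an adjusted p under 0.05. The smallest adjusted p was 0.880, and 693 regions (2.94%) had an unadjusted p under 0.05. No alternative that was run gave a call. The median SE of a difference was 9.22 percentile points, which limits what could be seen. The smallest p values were at Rnf180, Fyb and Akap13, where the naive difference was 30.0, 28.3 and 29.3 and the AF9-experienced difference 0.98, 1.42 and 0.

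The regions called in AF9-experienced mice mostly had the same sign in naive mice, whose lists were not used to call them. Of 1167 higher regions measured over 16 lists, 95.1% had a positive naive difference, against 49.9% of all regions, and of 595 lower regions 94.6% had a negative one, against 48.8%. Library strength moved in the same way in naive mice: the median fold of the full lists was 4.50 to 5.86 after LPS and 8.08 to 9.01 in naive PBS 2 to 4, with 5.09 in naive PBS 1. Its part in the shared sign was not tested. In the same fit the median AF9-experienced difference of the higher regions was 26.9 and the naive one 19.8. That of the lower regions was -23.8 and -17.2, and since the regions were chosen in AF9-experienced mice, the larger value there is no result.

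Single genes gave similar values side by side. At Acod1 the difference was 38.4 in AF9-experienced and 45.4 in naive mice, at Erg 33.7 and 38.4, at Nfkb1 29.0 and 38.1, and at the Sla2 promoter -53.3 and -48.5. Wider gaps were seen at Cd9 (59.5 and 26.1, unadjusted p of the difference 0.0116) and Il1b (39.6 and 14.2, p = 0.0286), and unadjusted p-values under 0.05 were also found at Itga5 (0.00822), Nfkb2 (0.0268) and Atf3 (0.0300). None of these 5 passed limma's adjustment over all regions. The regions were chosen by their calls in AF9-experienced mice, and the values behind those calls enter this difference. The unadjusted p-values are therefore a description and no support for a larger response in AF9-experienced mice.

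**Figure D5:**
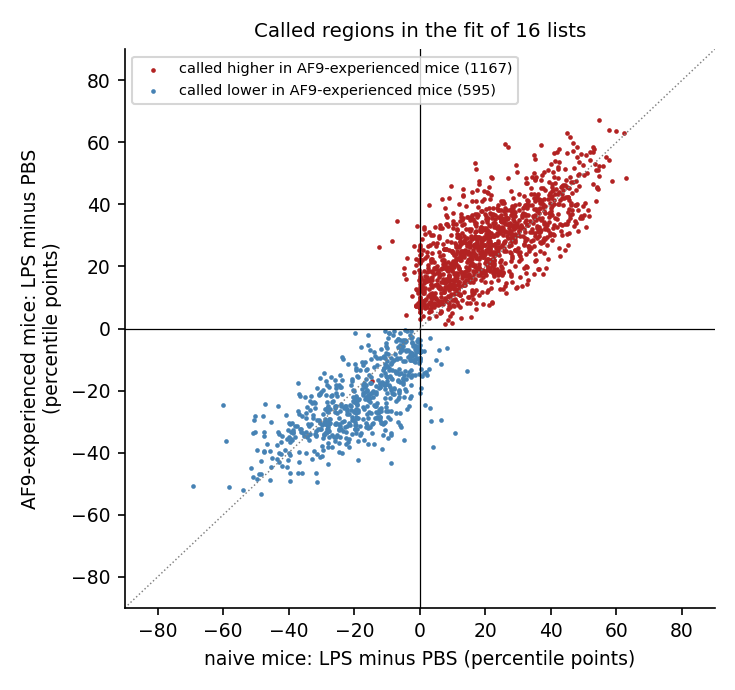
LPS minus PBS in AF9-experienced (vertical) against naive mice (horizontal), in percentile points from the fit of 16 lists, for regions called higher (red, 1167) or lower (blue, 595) in AF9-experienced mice. The dotted line marks equal differences, and most points lie in the quadrants of equal sign (95.1% of red and 94.6% of blue points).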

How the data were processed

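ATAC-seq peaks were called by the authors per biological replicate. Per the submitters' processing notes FastQC, Trim Galore, BWA, Picard and MACS3 were used with build GRCm38; versions and read filters are not given in the sources used here. The labels name both Omni-ATAC and a Chromium chemistry. The deposited lists give each peak's fold enrichment (a ratio within its library), -log10 p and -log10 q. These are the authors' values, not scaled between libraries, so ranks were compared. Autosomal lists were shortened to 25219 peaks (59609 without PBS 1, 19100 over 16 lists), overlapping peaks merged, and regions in at least 3 lists tested with limma 3.58.1 in R 4.3.3 (trend and robust options, a mean per group, Benjamini-Hochberg over all regions). Python 3.11.15 and SciPy 1.17.1 gave exact permutation tests. The fit was tested on simulated data.

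Each region took the closest protein-coding RefSeq model (GRCm38.p6) up to 50 kb away, and 653 of 659 genes in 31 lists matched. The members and lists were chosen with earlier results of these data known. Named were the 8 regions of smallest p per direction, called list members (at most 8 per direction), the 10 genes with most called regions, a set of always-named genes and the 3 regions of smallest p against naive mice. Alternatives covered ranking, list length, windows, filters, presence, library weights, a strength covariate, a replicate block and leaving out libraries.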

Additional observations from a re-analysis of the deposited data

Results flagged for a closer look

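In groups of 4 or 5 lists, 10 of 82 groups of values had a list set far from the rest by Dixon's test. No chance rate can be set beside this count, since ranks are floored at 0. A single value above 0 among zeros is always flagged, as at Traf2, Klf4, Fos and Ctnnb1. Groups with 0 in every list cannot be flagged, yet are counted in the 82. PBS 1 was low in peak number (25685, against 84229 to 88816 in PBS 2 to 4) and in median fold enrichment (4.67, against 17.4 to 18.8). It was also high at the Cdk6 region, at 22.3 against 0 to 0.81. Other PBS lists stood high at the regions of Traf2 (PBS 2, 2.17 against 0), Socs3 (PBS 2, 80.2 against 74.3 to 74.9) and Klf4 (PBS 4, 3.57 against 0). Among LPS lists, LPS 5 was low at Il1b (36.3 against 56.5 to 60.0) and high at Fos (9.43 against 0) and Ctnnb1 (4.15 against 0), and LPS 1 was low at Cd9 (65.0 against 70.1 to 72.0). The chromosome Y, which no comparison used, carried 3 peaks in LPS 1 and 2 in LPS 2, and none in any other AF9-experienced list.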

How the results depend on the processing

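In the lists of 25219 peaks, 1168 regions were higher and 618 lower. Higher and lower counts were 445 and 301 with ranking by fold, 280 and 131 with 12609 peaks, 22 and 81 by presence in the full lists, 0 and 0 by presence of a peak with a -log10 q of 5 or more, 2772 and 2854 with library weights, 2056 and 1364 with median fold as covariate, and 628 and 261 with the replicate block. The fit of 16 lists gave 411 lower. Leaving out 1 library gave 611 to 1599 higher and 228 to 1367 lower. In the longer lists the counts of 3181 and 3283 became 9414 and 9355 by fold, 1978 and 1747 with 29804 peaks, 32 and 6595 by presence at that q limit, 5361 and 7273 with weights and 0 and 0 with the covariate. Presence in full lists gave 100 higher. The lower count was 1822 without a filter, 1489 with at least 5 lists and 4934 without the LPS lists that hold Y peaks, and leaving out 1 library gave 1434 to 3278 and 314 to 3916. LPS minus PBS in peak number ran from -18129 to 2915 and in median fold from -8.39 to -3.67 without 1 library.

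Same-numbered libraries were not paired (correlations -0.15 to 0.01 over 4 pairs, 0 of 4 LPS libraries closest to their own number). The replicate block left 602 of the 1168 higher and 239 of the 618 lower regions called. Among named regions called in the shorter lists, ranking by fold kept 34 calls, lost 70 and turned the sign of 3: Nr4a1 to 4.18, Notch1 to 8.83 and Zfp36 to -0.16. Lef1 turned to 0.25 by presence at the stricter threshold, Robo4 and Tle4 to 0.25 by both presence measures, and Jun to -0.35 in the longer lists with the covariate. Causes were not tested. The difference from naive mice gave 0 calls under every alternative run.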

Other observations

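Promoters outside the gene lists, chosen after their values were seen, also ranked higher after LPS by limma in the lists of 25219 peaks. The metallothionein genes Mt1 and Mt2, whose products bind zinc and copper, had mean ranks of 93.9 and 63.6 after LPS and 69.7 and 26.7 after PBS (differences 24.2, SE 3.04, and 36.9, SE 7.27). Ccrl2, an atypical chemokine receptor that presents chemerin, had 64.7 and 23.8 (difference 40.9, SE 6.77), with an NF-kB match in its promoter window. The 3 adjusted p-values were 0.000311, 0.00627 and 0.00198, and all 3 promoters were called higher in the longer lists too.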
